A study of Mus musculus with 16 samples.

Results

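Fatty acid elongases and desaturases were examined as a group of 10 genes, namely Elovl1, Elovl2, Elovl4, Elovl5, Elovl6, Elovl7, Fads1, Fads2, Scd1 and Scd2. They were found by their symbols in a table of 25905 genes, and all 10 were listed. The libraries were made from the right retinas of male wild type C57BL/6 mice, aged 10 weeks at the start of the flight. The Flight group held 8 mice that had spent 35 days aboard the International Space Station, and their eyes were taken about 38 hours after splashdown. The Ground Control group held 8 mice kept on Earth in the same housing hardware and on the same diet. The value used for each gene was the authors' mean over all 16 libraries of counts divided by size factors, named the mean normalized count below. It pools both groups and carries no SD, so Flight and Ground Control were not compared here and no value per mouse is given.

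Elongases of the Elovl family carry out the first, rate-limiting step of the cycle that lengthens fatty acids at the endoplasmic reticulum. Fads desaturases place double bonds in polyunsaturated chains, and Scd desaturases turn saturated chains into monounsaturated ones such as oleate. Photoreceptor disc membranes are among the richest in docosahexaenoic acid (DHA), a polyunsaturated fatty acid that is made from dietary precursors by alternating Fads and Elovl steps and a final shortening in peroxisomes.

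The smallest means in the table show what 1 read was worth. Below the level of 2 reads the table held 16 distinct values, from 0.0517 to 0.0800, as a single read in 1 of 16 libraries would give. The size factors that follow from them ran from 0.781 to 1.21, a 1.55-fold range. A mean normalized count therefore translates into bounds on the reads behind it over all libraries. Elovl4 rested on 3 reads and Elovl1 on 16 to 24. Elovl7 rested on at least 515 reads and Scd2 on at least 49203.

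To set genes beside each other, each mean was divided by the length of the gene's reference transcript in kb. Of the 16066 genes with a mean of at least 1, 13667 (85.1%) had such a length, and their median was 44.8 per kb. The 8 members with 1 transcript in the authors' counting spanned a 70.3-fold range. Of these, 6 lay above the median of genes, and Scd1 and Elovl7 lay below it. Without division by length, Scd1 at 203 lay above the median count of 94.5. These medians include genes counted over several transcripts. Over coding genes with 1 transcript and a mean of at least 1, the median count was 159, and the same median per kb was not computed. On both scales, Elovl1 and Elovl4, counted over several transcripts, were far lower than these 8 members. The values of Elovl1 and Elovl4 are taken up below and are not read as low expression here. For the other 8 members, fewer cells of a type and less RNA per cell cannot be told apart in bulk tissue.

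**Figure D1:**
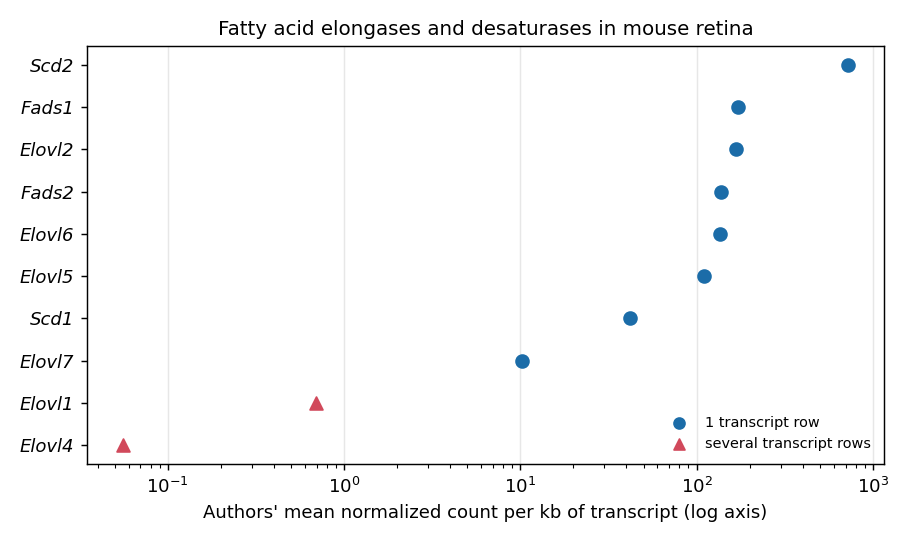
Authors' mean normalized count per kb of reference transcript (horizontal, log axis) of the 10 genes, pooled over all 16 libraries and drawn without an error. Circles are genes counted over 1 transcript and triangles genes counted over several. Scd2 stands highest at 722 per kb and Elovl4 lowest at 0.0558 per kb.

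Scd2 was the most abundant member. Its mean normalized count was 3936, or 722 per kb, above 96.7% of genes on the per kb scale. Scd2 is the main stearoyl-CoA desaturase of mouse brain. Scd1, the main form of liver and fat, had a mean normalized count of 203, or 42.0 per kb. The per kb level of Scd2 was 17.2 times that of Scd1. Of the other genes of the cluster, Scd3 was at 19.4 per kb and Scd4 at 0.382 per kb.

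The 4 Scd genes lie side by side on chromosome 19, with 0 other coding genes between them, in the order Scd3, Scd2, Scd4 and Scd1. Their coding sequences were 83.8% to 91.5% identical over aligned bases, and those of Scd1 and Scd2 90.3%. Reads of 75 bases, the length sequenced, could fall where the genes have the same letters. Of the 75-base windows of the Scd1 transcript, 3.24% also occurred in another Scd gene, and of those of Scd2 1.80%. The longest coding run that Scd1 and Scd2 share is shown because reads inside it cannot be assigned to either gene by sequence. It spans 147 bases and is printed with 15 bases on each side, from coding base 517 to 693 of Scd2, across exons 4 and 5 of 6. In the assembly GRCm38.p6 these bases lie within chr19:44299687-44301260 on the plus strand, with the intron between the exons. The corresponding bases of the other genes follow, 5′ to 3′, with capitals at each base that differs from Scd2.
Scd2: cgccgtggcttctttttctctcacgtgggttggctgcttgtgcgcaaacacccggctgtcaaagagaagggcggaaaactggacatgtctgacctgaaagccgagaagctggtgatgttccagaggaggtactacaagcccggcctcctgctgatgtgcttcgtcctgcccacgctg
Scd1: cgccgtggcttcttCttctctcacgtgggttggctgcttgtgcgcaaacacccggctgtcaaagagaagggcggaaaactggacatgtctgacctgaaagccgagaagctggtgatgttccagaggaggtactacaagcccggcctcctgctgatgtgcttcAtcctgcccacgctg
Scd3: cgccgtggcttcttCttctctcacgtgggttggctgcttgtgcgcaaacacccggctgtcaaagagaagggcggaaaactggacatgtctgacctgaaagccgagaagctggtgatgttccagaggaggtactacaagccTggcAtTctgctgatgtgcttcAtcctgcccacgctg
Scd4: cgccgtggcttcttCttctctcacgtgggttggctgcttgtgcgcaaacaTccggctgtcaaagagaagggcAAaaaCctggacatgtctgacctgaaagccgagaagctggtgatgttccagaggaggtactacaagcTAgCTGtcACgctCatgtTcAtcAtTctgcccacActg

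Within these 177 bases, Scd1 differs from Scd2 at 2, Scd3 at 5 and Scd4 at 18. How the counting treated reads that match several genes is not given in the sources used here. The values of the 4 genes are therefore uncertain, and those of Scd1, Scd3 and Scd4, all far lower than Scd2, the more so.

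Fads1 and Fads2, the front-end desaturases of DHA and arachidonic acid synthesis, were close in level. Fads2 performs the first desaturation of the dietary precursors and had a mean normalized count of 431, or 137 per kb. Fads1 acts after the following elongation and had a mean normalized count of 593, or 171 per kb. The per kb ratio of Fads1 to Fads2 was 1.25, and whether this exceeds the spread between mice was not tested. The related Fads3 was at 39.5 per kb and Fads6 at 7.53 per kb. Fads1, Fads2 and Fads3 also adjoin each other on chromosome 19. Their coding sequences were 63.0% to 69.8% identical, and their transcripts shared 0 windows of 75 bases.

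Among the elongases, Elovl2, Elovl6 and Elovl5 made up most of the listed signal. Elovl5 lengthens the first polyunsaturated products and had a mean normalized count of 306, or 110 per kb. Elovl2 lengthens the longer polyunsaturated chains on the way to DHA and had a mean normalized count of 645, or 168 per kb. The per kb level of Elovl2 was 1.53 times that of Elovl5. Elovl6, which converts palmitate to stearate, had a mean normalized count of 804, or 135 per kb. Elovl7, which acts on saturated and monounsaturated chains, was lower, at a mean normalized count of 41.2, or 10.3 per kb. Elovl3, a related elongase of skin and brown fat with 1 transcript row, was listed at 0.

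The place of Elovl6 in the order depended on the length used. Its transcript of 5951 bases holds a coding sequence of 801 bases. Per kb of transcript it had rank 5 of the members, below Scd2, Fads1, Elovl2 and Fads2. Per kb of coding sequence it had rank 2, at 1004, above Elovl2 at 736. Scd2 had rank 1 and Scd1, Elovl7, Elovl1 and Elovl4 ranked last, in that order, on both scales. The 6 elongases were 53.0% to 64.5% identical in coding sequence, the closest pair being Elovl2 and Elovl5. Of the 15 pairs of reference transcripts compared, 0 shared a 75-base window.

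Elovl1 and Elovl4 were listed near 0. Elovl1 makes saturated and monounsaturated very long chains for sphingolipids, and its mean normalized count was 1.26, or 0.695 per kb. Elovl4 makes the very long chain polyunsaturated fatty acids of photoreceptors, and mutations in the human gene cause a dominant macular dystrophy. Its mean normalized count was 0.168, or 0.0558 per kb, while the libraries were rich in photoreceptor RNA, as given below. These are the 2 members of the group with several rows in the authors' count table, in which each row is a RefSeq transcript. Elovl1 had 3 rows and Elovl4 had 2. The other 8 members had 1 row each, and the lowest of them was Elovl7.

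Levels by number of transcript rows were then described over the whole table, a description chosen after the values of Elovl1 and Elovl4 were seen. Of 16959 coding genes with 1 transcript row, 35.6% had a mean normalized count below 5. The share was 62.2% of 2159 genes with 2 rows, 64.5% of 634 genes with 3 rows and 68.4% of 373 genes with 4 or more. Per kb, the median was 20.2 with 1 row, 0.480 with 2 rows, 0.531 with 3 rows and 0.246 with 4 or more. Means of at least 100 were listed for 42.9% of genes with 1 row and for 10.9% of genes with 2.

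Among genes with several rows, the level went with how much sequence their transcripts share, which was also examined after those values were seen. Of 3166 such genes, 2399 (75.8%) were scored, those whose rows were all coding and each matched a different transcript of the reference. Each 75-base window was scored by whether it occurred in 1 transcript of the gene or in more. Where under 10% of windows belonged to a single transcript, 76.4% of 1028 genes had a mean normalized count below 5. The share was 59.8% of 567 genes at 10% to 25%, 49.9% of 499 genes at 25% to 50% and 28.5% of 305 genes above that. The median mean normalized count per kb was 0.187 in the first of these classes and 9.28 in the last. Genes are not independent replicates, and these shares are a description of the table.

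**Figure D2:**
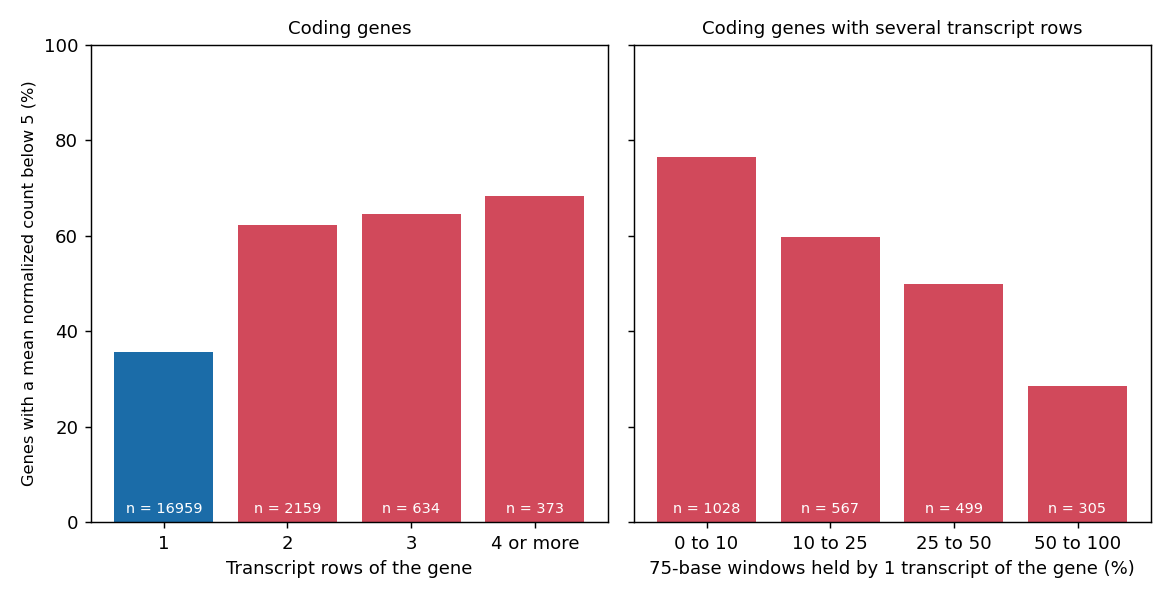
Share of coding genes with a mean normalized count below 5 (vertical, percent), by the number of transcript rows (left) and, for genes with several rows, by the percentage of 75-base windows found in a single transcript of the gene (right). The number of genes stands in each bar. The share was 35.6% with 1 row, and among genes with several rows it was 76.4% in the class with the fewest such windows and 28.5% in the class with the most.

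For Elovl1, 14.8% of windows occurred in a single transcript. By transcript this was 73 of 1174 windows, 129 of 1063 and 385 of 1737. An exon of Elovl1 also overlaps an exon of Cdc20 on the opposite strand. Of the other members, Elovl6 overlaps an exon of Gm35986 on the opposite strand, and Scd2 overlaps Mir5114 on the same strand. The libraries were stranded, and the strand setting of the counting is not given in the sources used here. For Elovl4, 1 of 2 transcripts was found in the reference, so its windows were not scored. The part of transcript rows in the near-0 values of Elovl1 and Elovl4 was not tested, and these values are not read as low expression here.

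The other genes of the pathway, a list of 60, were described on the same scale. Of these, 47 had a mean normalized count of at least 5. Among 48 genes with 1 transcript row, 5 were below 5, and among 12 genes with several rows, 8 were below 5. The median mean normalized count was 280 for the first and 1.66 for the second.

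After condensation by an Elovl enzyme, the elongation cycle is completed by a reduction, a dehydration and a second reduction. The ketoacyl reductase Hsd17b12 was at 336 per kb. Of the dehydratases, Hacd3 was at 489 per kb and Hacd2 at 55.3 per kb. Tecr, the enoyl reductase that ends the cycle, was at 3.18 per kb, with a mean normalized count of 3.68 over 2 transcript rows. Hacd1 was at 1.08 per kb, also over 2 rows. Tecr and Hacd1 were named after their values were seen.

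Desaturases take electrons from cytochrome b5 and its reductases. Cyb5r3 was at 248 per kb, Cyb5b at 229 per kb and Cyb5r1 at 130 per kb. The enzymes that make the first chains had a median of 178 per kb. Acly, which supplies acetyl-CoA, was at 539 per kb, and the acetyl-CoA carboxylase Acaca was at 178 per kb. The fatty acid synthase Fasn lay between them per kb, with a mean normalized count of 2010. The remaining genes of this list, Mcat at 30.6 and Acacb at 3.81 per kb, were below the median of genes and were named after their values were seen. All 6 genes of the first list and all 5 of the second had a mean normalized count of at least 1.

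Acyl-CoA synthetases activate fatty acids for either pathway. Acsl1 was at 212 per kb, Slc27a1 at 144 per kb and Slc27a4 at 89.3 per kb. Acsl3 was listed at 0 over 3 transcript rows, and Acsl4 and Acsl6 were at 2.80 and 1.18 per kb over 3 and 4 rows. Acsbg1 and Slc27a2, with 1 row each, were lower than these last, at 0.345 and 0.842 per kb. These 5 were named after their values were seen. The 7 genes of peroxisomal shortening had a median of 141 per kb and included Scp2 at 284 per kb and Hsd17b4 at 178 per kb.

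Of the genes for uptake of DHA and its placing in phospholipid, 2 had the highest levels of the pathway, while the list's median was 81.1 per kb. Agpat3, an acyltransferase that places DHA in phosphatidic acid, was at 2971 per kb. Adipor1, which photoreceptors need to keep their DHA, was at 1907 per kb. Both exceeded Scd2. The acyltransferase Lpcat1 followed at 137 per kb. The DHA transporter Mfsd2a was at 8.27 per kb, the lipid-binding Fabp7 at 19.3 per kb and Lclat1 at 0.0756 per kb over 3 transcript rows. These 3 of the 9 genes were named after their values were seen.

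Among the regulators, the sterol regulatory factors Srebf2 and Srebf1 were at 315 and 214 per kb. Srebf1 drives fatty acid synthesis genes in liver, Scd1 and Elovl6 among them. The liver X receptor Nr1h2 was at 297 per kb. Of the 13 regulators, 6 had several transcript rows. Among these, Insig2 was at 64.7 per kb with a mean normalized count of 174, and Scap had a mean normalized count of 7.08, while the other 4 were below 5. Insig2 and Scap were named after their values were seen.

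**Figure D3:**
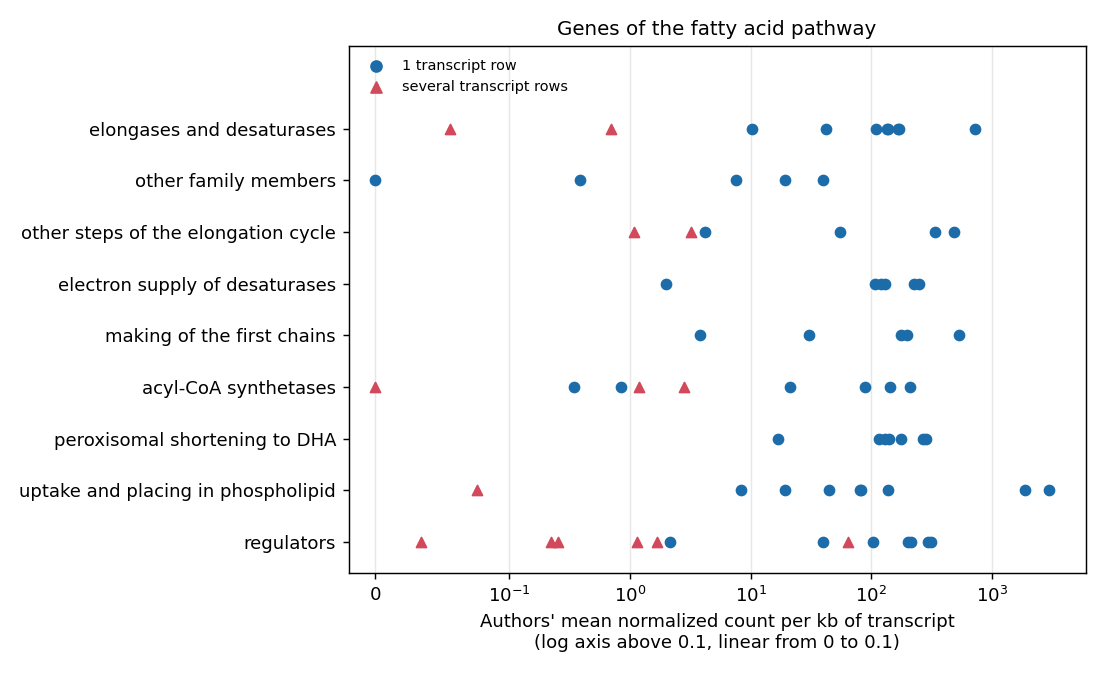
Authors' mean normalized count per kb of reference transcript (horizontal, log axis above 0.1 and linear below) for the 10 elongases and desaturases and the 60 other genes of the pathway, by group. Circles are genes with 1 transcript row and triangles genes with several. Agpat3 at 2971 per kb and Adipor1 at 1907 per kb stand highest, and 8 of the 12 triangles outside the first group have a mean normalized count below 5.

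The labelled tissue was checked against marker lists. Rod genes had the highest median of the lists, 5086 per kb, and were led by Gnat1 at 66356 per kb. The rod factor Nrl, with 2 transcript rows, was at 35.5 per kb and was named after its value was seen. Cone genes were led by Opn1sw at 1162 and Opn1mw at 1153 per kb. Müller glia genes had a median of 1114 per kb and were led by Glul at 6252 and Apoe at 3723 per kb. Bipolar cells were represented by Prkca at 504 per kb, amacrine cells by Gad1 at 720 and Slc6a9 at 496 per kb, and horizontal cells by Calb1 at 120 and Onecut1 at 23.1 per kb. Ganglion cell genes were led by Thy1 at 997 and Nefl at 887 per kb.

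Genes of other tissues of the eye were listed as well. Pigment epithelium genes were led by Ttr at 455 and Rrh at 102 per kb, and the list's median was 80.8 per kb. Its lowest genes, Lrat at 17.4 and Best1 at 1.31 per kb, lay below the median of genes. Melanocyte genes were led by Dct at 165 and Tyrp1 at 75.1 per kb, and the list's median was 46.4 per kb. Below the median of genes were Mlana at 35.7 and Tyr at 8.05 per kb, with Slc45a2 lower still. Lrat, Best1, Mlana, Tyr and Slc45a2 were named after their values were seen. All 8 lens genes were listed above 1, led by Cryaa at 709 and Crybb2 at 487 per kb, and the list's median was 113 per kb. Bfsp1 at 41.6, Bfsp2 at 32.1, Mip at 22.9 and Lim2 at 9.89 per kb lay below the median of genes and were named after their values were seen. Endothelial genes were led by Kdr at 229 and Flt1 at 174 per kb, but the list's median was 30.5 per kb. The other endothelial genes lay below the median of genes, down to Pecam1 at 0.136 per kb over 2 transcript rows. Pecam1 was named after its value was seen. Astrocyte genes were led by S100b at 45.0 and Gfap at 19.7 per kb. Microglial genes were led by Csf1r at 22.6 and P2ry12 at 11.1 per kb. Oligodendrocyte genes were led by Mbp at 33.9 per kb over 8 transcript rows, but 5 of the 7 had a mean normalized count below 5 and the list's median was 0.402 per kb. Mog, with 1 row, was at 0.0410 per kb. The muscle genes Mylpf and Acta1 were at 6.70 and 6.18 per kb, and Tnnt3, with several transcript rows, was listed at 0.

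Adipocytes express Scd1 strongly. Of their 5 marker genes, 4 had a mean normalized count below 5, and whether adipocytes contributed Scd1 reads was not tested. Fabp4, which endothelium also expresses, was at 26.2 per kb and Adipoq at 0.0897 per kb, while Cidec was listed at 0. Plin1 was also listed at 0, over 2 transcript rows. Which cells of the retina carried each elongase or desaturase was not measured in these libraries. Of the markers with several transcript rows, 7 of 13 had a mean normalized count below 5, against 11 of 80 with 1 row. Low genes of both kinds came from the oligodendrocyte, adipocyte and muscle lists, so row number is mixed with cell type here. The difference was not tested. The low markers with several rows included Rlbp1 of Müller glia at 0.648 per kb and the cone gene Pde6c at 0.0241 per kb. Both were named after their values were seen. The other markers with several rows were at 5 or more, namely Nrl, Gfap, Mbp, Rbpms, Pcp2 and Trpm1. Per kb, only Trpm1 of bipolar cells, at 502 over 2 rows, lay above the median of genes among them. Rbpms, Pcp2 and Trpm1 were named after their values were seen.

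**Figure D4:**
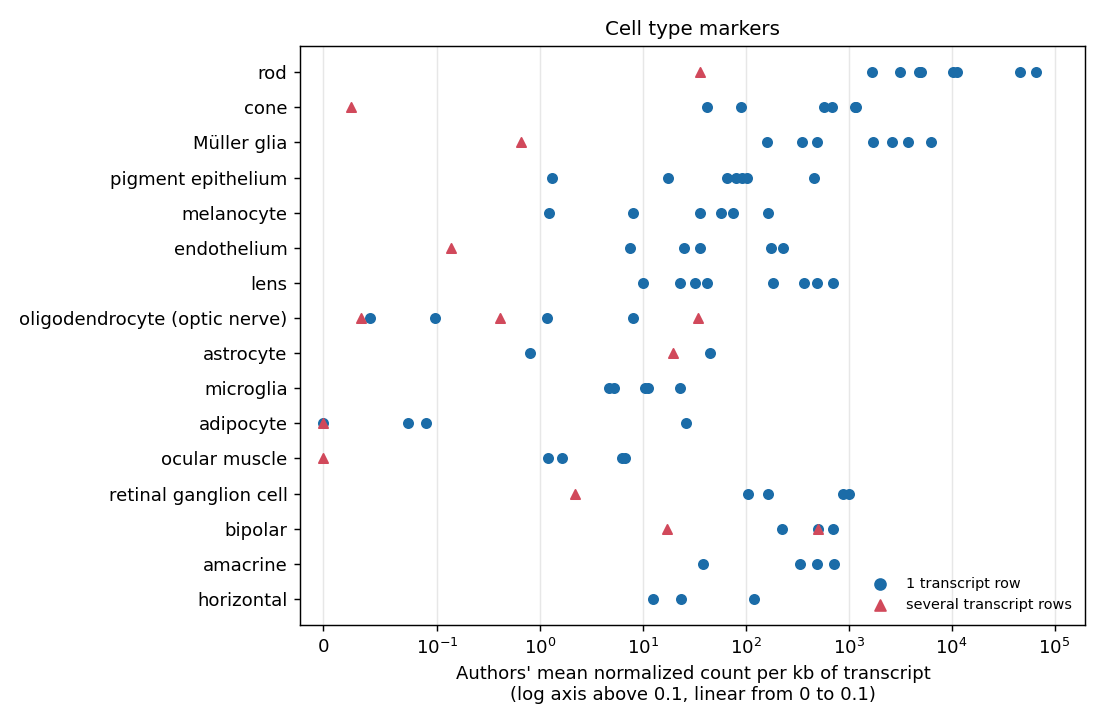
Authors' mean normalized count per kb of reference transcript (horizontal, log axis above 0.1 and linear below) of the marker genes of each cell type. Circles are genes with 1 transcript row and triangles genes with several. Rod genes reach 66356 per kb, and the adipocyte and muscle lists each hold a gene listed at 0.

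The 250 bases before the start site were examined for the 7 members found in the RefSeq promoter table of GRCm38.p6, namely Elovl1, Elovl2, Elovl4, Elovl5, Elovl6, Elovl7 and Fads2, which had 9 start sites. Fads1, Scd1 and Scd2 were not matched. The GC box GGGCGG, searched on both strands, occurred before 6 of the 9 start sites, against 32.7% of 32851 promoters. These were the table's promoters with all 250 bases, without those of a chromosome that holds no member. The CCAAT box CCAAT occurred before 2 start sites, one of Elovl1 and that of Elovl5, against 33.8% of the same promoters. The E-box CACGTG occurred before that of Elovl5, against 6.02%. The TATA box TATAAA, the Crx core TAATCC and the sterol element core TCACNCCAC occurred before 0, against 12.4%, 6.25% and 1.05%. The GC content was above the median of the same promoters, 52.4%, before all 9 start sites, from 55.6% for Elovl5 to 87.2% for one of Elovl2. A match describes letters in this window and not a bound site.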

How the data were processed

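Retinal RNA of 16 mice was sequenced in stranded libraries. Per the submitters' processing notes and the paper's methods, the authors trimmed reads with Trimmomatic, mapped them to an earlier NCBI mouse build with TopHat2, counted them with HTSeq and normalized them in DESeq2 1.22.2. The deposited signal used here is the authors' mean over all 16 libraries of counts divided by size factors. The authors' table also holds their fold changes, standard errors, test statistics and p-values, which were not used. The deposited count tables hold 32 columns of counts per library, named with codes that no label holds, and these were not used. Their transcript and symbol columns gave the transcript rows of each gene, and 25 symbols had none.

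The design had assumed counts per library and an edgeR comparison of Flight and Ground Control, which was not run. The values used are pooled means, so levels were described without a test. Depth per sample was not analysed here, and only the range of size factors is given. Lengths, coding sequences and 75-base windows came from GENCODE M21 transcripts matched by RefSeq accession, taking the longest of a gene, on a newer assembly than that of the authors' mapping. Coding bases were aligned globally in Biopython 1.88 (match 1, mismatch -1, gap opening -5, extension -0.5) in place of proteins. Named genes were the 10 members, the 3 most abundant per kb of each pathway group, the 2 most abundant markers of each list and markers listed at 0, and others as stated. Some of these are not reported here. Members and lists were chosen with earlier results of these data known. Alternatives were older symbols, coding length, other limits and windows of 50 bases. Steps were tested on simulated data. Python 3.11.15, pandas 2.3.3, numpy 2.4.6, scipy 1.17.1 and matplotlib 3.10.9 were used.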

Additional observations from a re-analysis of the deposited data

How the results depend on the processing

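The labels give both groups the same replicate numbers but do not say that these mark pairs. No paired analysis was possible in any case, because the values used carry no replicate numbers. For the same reason the group comparison and its other settings (DESeq2, size factors, no filter, a stricter threshold, a replicate block and a GC offset), and the correlations of other genes with Elovl2, Elovl4 and Fads2 were not run. Protein identity and coding length from proteins were not run either. The number of members with a mean normalized count of at least 1 was 9 of 10, and 9 with older symbols also searched, of which 0 were listed. Coding length, chosen after seeing the data, raised the per kb level of all 10 members, by 2.16-fold to 7.43-fold, and changed the rank of 4. Counting percentiles among all genes above 0 raised that of all 10. The identity of Scd1 and Scd2 was 90.3%, and 89.6% over the longer coding sequence, also chosen after seeing the data.

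The shares by transcript rows and by windows, with their limit of 5 and length of 75 bases, and all their alternatives were also chosen after seeing the data. With a limit of 1 in place of 5, the share of coding genes below it was 28.8% with 1 transcript row, 45.0% with 2, 43.4% with 3 and 50.4% with 4 or more. With a limit of 20 the shares were 42.8%, 76.1%, 80.3% and 83.6%. Both follow from the limit itself. Over all genes in place of coding genes, the shares below 5 were 44.3% with 1 row and 68.5% with 2. They were 66.2% with 3 rows and 69.8% with 4 or more. The cause of these differences from the shares over coding genes was not tested. With windows of 50 bases the shares ran from 76.5% to 27.3% over the 4 classes. Each limit gave a lower share with 1 row than with several. The 3 reads behind Elovl4 limit what its level can show, and the spread between mice was not analysed here.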
